A study of Mus musculus with 3 samples.

Results

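Argonaute 2 (Ago2) HITS‐clip peaks that lay inside introns and came back in every library were examined in N2A cells, a mouse neuroblastoma line. A peak was taken when it was 86 to 200 nt wide, lay with its full interval in introns of protein-coding genes on the same strand, touched no annotated exon on either strand (GENCODE mouse M21, GRCm38), and shared 1 nt or more with a same-strand peak of 86 to 200 nt in each of the other 2 libraries. The rule selected 1249 peaks of 711377 in replicate 1, 1259 of 498071 in replicate 2 and 1546 of 829936 in replicate 3, that is 4054 of 2039384 peaks in all. Members that overlapped were joined, which gave 1500 loci in 743 protein-coding genes.

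All 3 libraries belong to 1 group of N2A cells kept under basal conditions, with no treatment or genotype to compare. The cells were crosslinked with ultraviolet light once at 400 and then 2 times at 200 mJ per square cm, after which Ago2 was immunoprecipitated with the antibody clone 2D4 and the attached RNA was sequenced. The deposited table lists intervals without read counts, so the depth behind a peak is unknown and intervals given for shares cover only the counting of peaks or loci. Of 10 neuronal marker genes, 7 had an exon peak in all 3 libraries and Nefl had none in any. The 4 lymphoid, 4 erythroid, 4 hepatocyte and 4 muscle markers had 0 such genes each, against 1 of 5 myeloid markers (Ptprc) and 2 of 4 oligodendrocyte markers.

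Ago2 carries microRNAs (miRNAs) and is best known for holding them against sites in the 3′UTRs of mature mRNAs in the cytoplasm. Introns are transcribed together with the exons, are removed by splicing in the nucleus and are mostly degraded soon afterwards. They nevertheless make up most of the length of a pre-mRNA, and they also house small RNA genes such as miRNA hairpins and small nucleolar RNAs (snoRNAs). An intronic peak can therefore stem from a miRNA target, from a precursor RNA or from any intronic fragment that came down with the protein, and the peak table does not separate these.

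The sequences below come from the GRCm38.p6 reference and are written 5′ to 3′ on the transcribed strand. The first 4 are the stretches common to all 3 libraries at loci where the ends of the peaks nearly coincided, shown because they place the fragment to within a few nucleotides. Capitals mark the middle part left after 30 nt are taken off each side, since the deposited peaks appear to be padded by that amount. Brip1 encodes a DNA helicase that binds BRCA1, Sgcz a sarcoglycan, and Cacna2d3 an auxiliary calcium channel subunit.
Tmem81, chr1:132506620-132506705, plus strand: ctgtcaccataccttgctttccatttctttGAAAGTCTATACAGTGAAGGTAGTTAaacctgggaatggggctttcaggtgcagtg
Brip1, chr11:86170439-86170524, minus strand: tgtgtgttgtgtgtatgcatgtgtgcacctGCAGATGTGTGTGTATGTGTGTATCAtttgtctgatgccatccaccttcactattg
Sgcz, chr8:38170223-38170308, minus strand: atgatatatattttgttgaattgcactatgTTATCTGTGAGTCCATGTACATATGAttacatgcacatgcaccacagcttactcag
Cacna2d3, chr14:29401257-29401342, minus strand: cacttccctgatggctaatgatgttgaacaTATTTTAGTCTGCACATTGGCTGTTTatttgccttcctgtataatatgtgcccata

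The next pair are whole loci that end just before an annotated miRNA hairpin, and are shown because of that position. At each, only 1 library has a member, and the origin of the fragments was not tested. Evl encodes an actin regulator of the Ena/VASP family, and its locus stops 3 nt before Mir342 (chr12:108658620-108658718). The Tmem164 locus stops 12 nt before Mir652 (chrX:142739000-142739097).
Evl, chr12:108658519-108658616, plus strand: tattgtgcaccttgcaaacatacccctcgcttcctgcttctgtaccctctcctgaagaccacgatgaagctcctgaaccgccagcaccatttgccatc
Tmem164, chrX:142738896-142738987, plus strand: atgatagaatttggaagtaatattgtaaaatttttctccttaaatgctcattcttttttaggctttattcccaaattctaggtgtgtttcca

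Recurrence itself was rare among intronic peaks. Of 72578 intronic peaks of 86 to 200 nt in replicate 1, 1.72% were recurrent (95% Wilson interval 1.63 to 1.82%). The share was 2.88% of 43687 in replicate 2 (2.73 to 3.04%) and 0.877% of 176300 in replicate 3 (0.834 to 0.922%), with a mean of 1.83 ± 1.01% (SD, n = 3). Over all peaks of this width the same overlap was met by 4.79% in replicate 1, 6.71% in replicate 2 and 3.12% in replicate 3, so the intronic share lay below the background of each library. Since the overlap is part of the rule, these shares are a description and carry no test. The shares differed between libraries by far more than counting error. The rule asks for partners in each library, and the numbers of recurrent peaks (1249, 1259 and 1546) varied less than those of intronic peaks. The share was thus lowest in replicate 3, with the most intronic peaks, and highest in replicate 2, with the fewest.

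Peaks in other annotation classes give the scale. Of 9969, 41296 and 41119 3′UTR peaks in replicates 1, 2 and 3, 41.2%, 14.2% and 14% were recurrent. Of 8327, 29296 and 40301 peaks in coding sequence the shares were 18.5%, 6.9% and 5.19%. Replicate 1 thus had the highest shares and by far the fewest peaks in these classes, although it had more intronic peaks than replicate 2. Outside genes the shares were 0.898%, 1.91% and 1.05%. The intronic shares thus lay below the 3′UTR and coding shares in each library, and above the share outside genes in replicates 1 and 2 but not in replicate 3. When the partner peaks were sought on the opposite strand instead, 10, 9 and 11 intronic peaks met the rule, 30 in all against 4054, a ratio of 135 for same over opposite strand. The ratio was 73.3 over all peaks of this width, 303 for 3′UTR peaks, 1885 for peaks in coding sequence, where only 3 met the rule on the opposite strand, and 42.2 for peaks outside genes.

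**Figure D1:**
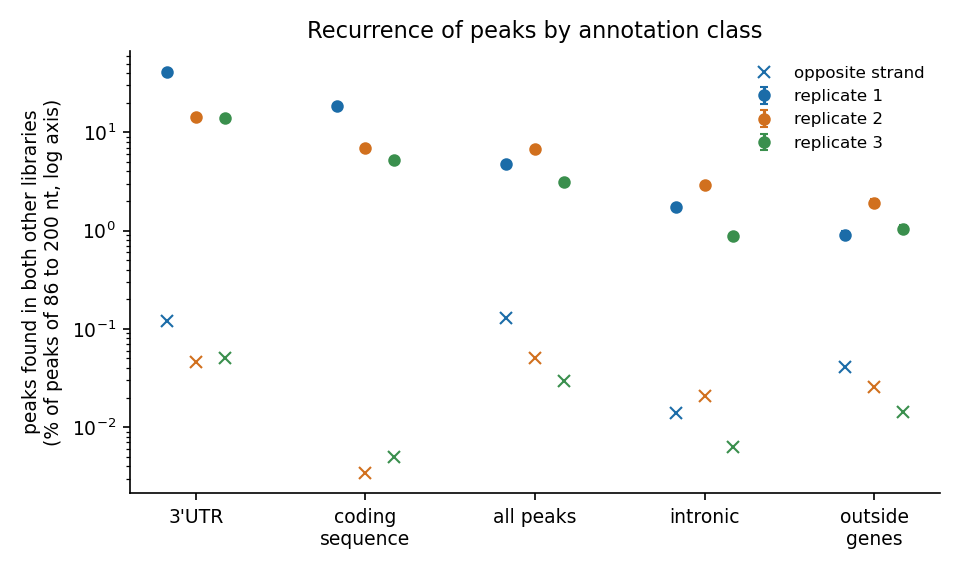
Share of peaks of 86 to 200 nt that overlapped a peak of that width in both other libraries (percent, log axis), by annotation class. Circles give the same strand with 95% Wilson intervals, mostly smaller than the symbol, and crosses the opposite strand, where coding peaks of replicate 1 had no such peak and no cross is drawn. Intronic peaks lie at 0.877 to 2.88%, below the 3′UTR and coding classes in each replicate.

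The members were short, with a median width of 97 nt and a range from 86 to 198 nt, and 63% were at most 100 nt wide. The deposited score was 60 for 98.8% of them and does not order them. Just inside the lower limit, 74, 67 and 61 members of replicates 1, 2 and 3 were 86 nt wide and 69, 52 and 59 were 87 nt wide. Just outside it, 212 intronic peaks of 85 nt and 229 of 84 nt would have met the overlap part of the rule, so the lower limit cuts through a continuous class of peaks. The widest member of each library, at 197, 198 and 195 nt, stayed under the upper limit.

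Overlap between the libraries was often slight. The smaller of a member's overlaps with its 2 partner libraries had a median of 43 nt (quartiles 20 and 66.8 nt, highest 107 nt), it was only 1 nt for 50 members, and it was at most 60 nt for 69.5%. With padding of 30 nt on each side, an overlap of up to 60 nt can arise without any overlap of the middle parts. When peaks were trimmed by 30 nt on each side first, 412 members a library (mean of 3) and 494 loci met the rule.

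Of the 1500 loci, 1009 had members in all 3 libraries and a stretch covered in each, with a median length of 47 nt and a maximum of 150 nt. Another 60 had members in 2 libraries and 431 in 1 library only. At 39 of those 431 the partner peaks overlapped each other but were not members themselves, for instance because they touched an exon. At the rest the member bridged partner peaks that did not overlap each other. The loci spanned 86 to 411 nt with a median of 152 nt.

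The end positions of the peaks varied between libraries. At 687 loci with exactly 1 member per library, the largest difference of starts plus the largest difference of ends had a median of 117 nt (quartiles 73 and 158 nt). It was 71 nt without replicate 2 and 67 nt without replicate 3, when only a pair of libraries is compared, and 40 nt with trimmed peaks. For 991 recurrent 3′UTR loci of the same kind the median was 120 nt (84 and 165 nt). The distributions differed at their low end, where 34 intronic loci (4.95%) and 5 3′UTR loci (0.505%) had ends within 10 nt of each other in sum. Both sets were chosen by overlap, so the difference is given as a description.

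**Figure D2:**
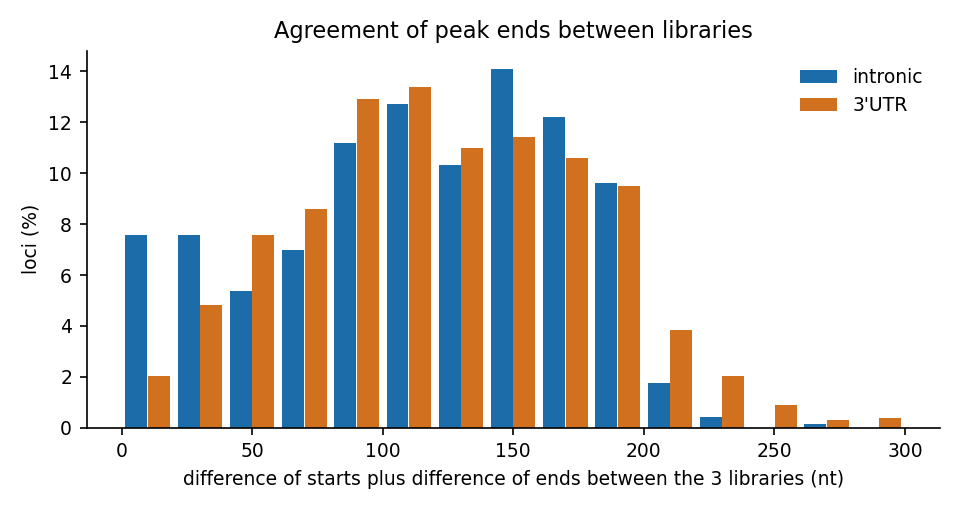
Distribution of the difference of starts plus the difference of ends between the 3 libraries (nt, bins of 20 nt), as percent of 687 intronic and 991 3′UTR loci with 1 peak per library. In the lowest bin stand 7.57% of the intronic and 2.02% of the 3′UTR loci, while the medians are 117 and 120 nt.

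Peaks with coinciding ends were seen in genes of quite different kinds. In Tmem81, Brip1 and Sgcz, whose sequences are printed above, the 3 libraries had the same start and the same end to the nucleotide, and in Cacna2d3 the ends differed by 2 nt in sum. Hmbox1, Ank2 and Frg2f1 differed by 1 nt. In Stk32a, which encodes a serine/threonine kinase, the ends also coincided. The Sgcz locus lay 217165 nt from the nearest annotated splice site and the Tmem81 locus 123 nt from one. Each of the 10 loci had a middle 30-nt word that occurs only at 1 place in the primary chromosomes. Bases masked as repeats made up 0% of the Tmem81 and Sgcz loci, 75.6% of the TG-rich Brip1 locus and 100% of the Ank2 locus.

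The 34 loci with ends within 10 nt were set beside the other 653 loci with 1 peak per library. Another recurrent locus lay within 5 kb of 6 of them (17.6%, 95% Wilson interval 8.35 to 33.5%), against 35.5% of the others (32 to 39.3%), intervals that just overlap. Their genes had a median of 17.4, 10.4 and 42.4 intronic peaks of 86 to 200 nt per 100 kb of intron in replicates 1, 2 and 3, against 35.4, 27.9 and 118. An exon peak in all 3 libraries was present in the gene of 24 of the 34 (70.6%, 53.8 to 83.2%), against 92.6% of the others (90.4 to 94.4%). GC content was 39.5% against 35%, while the proportion at least 50% repeat-masked was 17.6% against 15.2%, with overlapping intervals. The class was formed after the values had been seen and is given as a description.

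The loci were unevenly spread over genes. Of 20477 protein-coding genes with intron sequence, 743 (3.63%) had at least 1 locus, 463 of them exactly 1 and 280 more than 1. The 56 genes with 5 or more loci made up 7.54% of the genes with a locus and held 497 loci, or 33.1%. A locus was found in 0.146% of genes in the lowest of 5 equal classes of total intron length and in 9.72% in the highest. Per Mb of intron, however, the fourth class held most, with 2.72 loci, against 0.941 in the lowest and 1.32 in the highest class.

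Genes with a locus were also rich in intronic peaks in general. Their median density was 27.4, 19.1 and 76 intronic peaks per 100 kb of intron in replicates 1, 2 and 3, against 5.76, 3.2 and 13 in genes without a locus. A gene needs peaks in order to have a recurrent one, so these values carry no test. Of the 5820 genes with an exon peak in all 3 libraries 665 (11.4%) had a locus, against 78 of the other 14657 (0.532%), and 89.5% of the genes with a locus were of the first kind. Peaks over exons do not measure RNA level.

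Pcbp3 (chr10:76761857-76961887, minus strand), which encodes a poly(C)-binding protein of the hnRNP K type, held most loci. Its 31 loci comprised 37, 27 and 38 recurrent peaks in replicates 1, 2 and 3, out of 299, 127 and 447 intronic peaks. The largest group of neighbouring loci anywhere, with no more than 5 kb from one to the next, was also in this gene and counted 17 loci in 34.6 kb. It began 2.9 kb from the annotated gene start and covered 17.3% of the gene, and it held 64.9%, 55.6% and 52.6% of the gene's recurrent peaks in replicates 1, 2 and 3. Of its other intronic peaks 27.5%, 26% and 32% lay in the same stretch. The stretch was chosen as the largest group of recurrent loci, which fixes a high share of recurrent peaks in it, so these shares are a description.

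**Figure D3:**
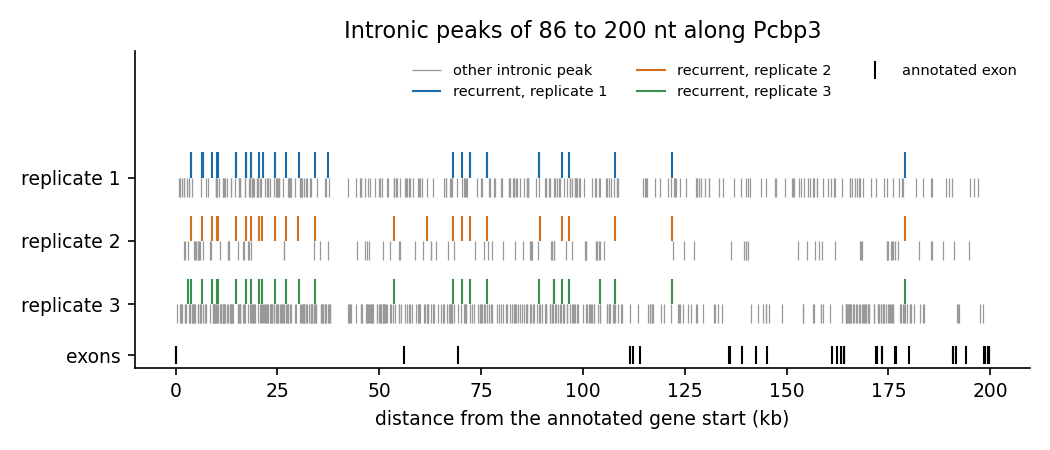
Intronic peaks of 86 to 200 nt along Pcbp3, by distance from the annotated gene start (kb), with 1 row per library and the annotated exons beneath. Coloured ticks are recurrent peaks and grey ticks the other intronic peaks. The group of 17 of the 31 loci, chosen as the largest, spans 2.9 to 37.5 kb. By the rule each recurrent peak overlaps a peak of each other library, but that partner need not be recurrent itself.

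Ankrd11, a chromatin regulator with ankyrin repeats, had 22 loci and 19, 22 and 29 recurrent peaks in replicates 1, 2 and 3. Tmtc2, a protein of the endoplasmic reticulum, had 20 loci and 18, 19 and 19 peaks. The rule asks for a partner in each library, which ties such counts between libraries. A partner need not be a member, however, so the counts can differ, as they did in Ankrd11.

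Among the next genes were Erbin, a scaffold that binds the receptor ERBB2, with 19 loci, and Unc5c, a netrin receptor of growing axons, with 17. Ankrd17 had 16 loci and 2010111I01Rik 15. Ankrd28, B3galt1 (a galactosyltransferase) and Trps1 (a GATA-type zinc finger repressor) had 13 each. Efna5, an ephrin ligand, and Ube2k, a ubiquitin-conjugating enzyme, had 12, and the junctional scaffold Magi1 and the FET family RNA-binding protein Taf15 had 11. Intron length differed widely among these 15 genes, from 30.7 kb in Taf15 to 598 kb in Magi1.

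**Figure D4:**
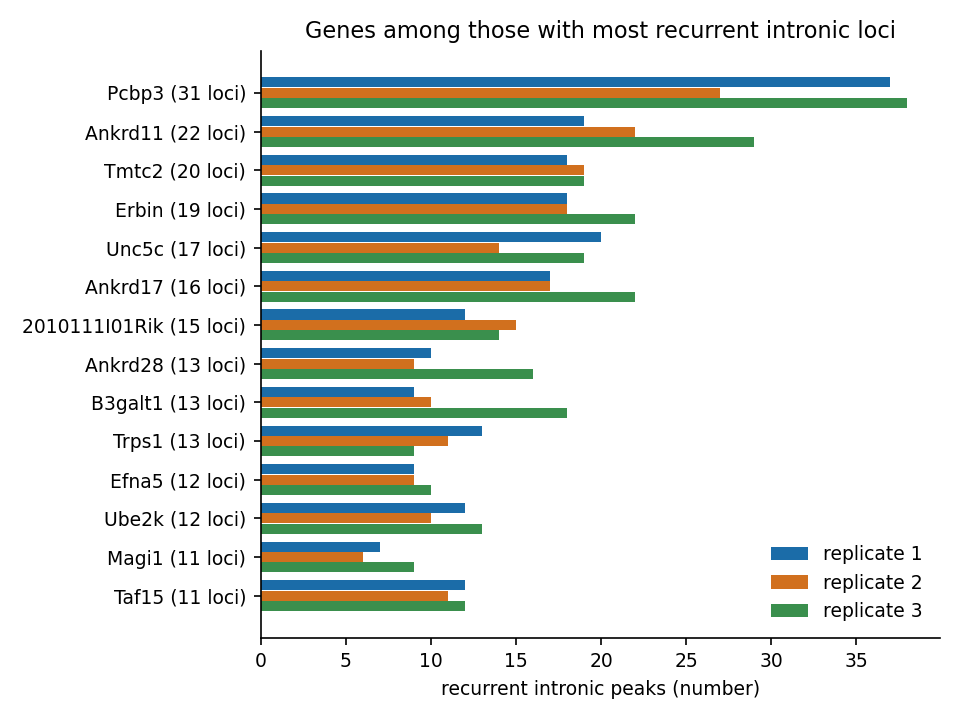
Number of recurrent intronic peaks in each library for genes among the 15 with most recurrent loci, with the number of loci in brackets. Bars run from 6 in Magi1 (replicate 2) to 38 in Pcbp3 (replicate 3), and in Pcbp3 each library has more such peaks than in any other gene shown.

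Set against intron length, other genes led. Srsf10, a splicing regulator of the SR family, had 4 loci in 7.16 kb of intron, or 55.9 loci per 100 kb, with 4, 3 and 5 recurrent peaks in replicates 1, 2 and 3. Sfpq, which encodes a splicing factor of nuclear paraspeckles, had 6 loci in 10.9 kb, or 54.8 per 100 kb, with 4, 5 and 9 peaks, and 4 of its loci touched a RefSeq exon. Racgap1, a GTPase-activating protein needed for cytokinesis, had 37.4 loci per 100 kb and 10, 14 and 12 peaks. Prpf39, a protein of the U1 small nuclear ribonucleoprotein, had 33.1 per 100 kb and Tra2a, another splicing regulator, 22.8.

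The other genes among the 10 densest were Taf15 with 35.8 loci per 100 kb of intron, the translation factor Eif4b with 26.4, Vapa, a tether of the endoplasmic reticulum, with 25.2, Ankrd10 with 24, and the mitotic kinase Cdk1 with 23.3. In replicates 1, 2 and 3, Taf15 had 12, 11 and 12 recurrent peaks and Ankrd10 4, 6 and 5. Cdk1 had 3, 1 and 1 for 3 loci, and Eif4b 2, 2 and 5 and Prpf39 2, 3 and 5 for 5 loci each. Vapa had 5, 5 and 13 for 8 loci and Tra2a 2, 2 and 6 for 3. Some loci of these last 5 genes thus had no member in at least 1 library. Only genes with at least 3 loci were ranked here, which leaves out Hnrnpa1, with 2 loci in 3.11 kb of intron. Taf15 was the single gene that stood among both the 15 with most loci and the 10 densest, and 10 of its 11 loci formed 1 group of 8.79 kb.

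Loci were also counted over lists of genes. Of 49 RNA-binding proteins of introns and neurons 20 had a locus (40.8%), with 48 loci in all, against the background of 3.63% of all genes. Restricted to genes with an exon peak in all libraries, 19 of 42 (45.2%) had a locus, against 11.4%. Median intron length on the list was 25.1 kb, between the 14.7 kb of all genes without a locus and the 61.1 kb of those with one. The list was drawn up with earlier results of these data known, so the share is a description and is not called particular to these proteins.

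On this list Ptbp2, the neuronal polypyrimidine tract-binding protein, had most loci, 8, with 7, 11 and 11 recurrent peaks in replicates 1, 2 and 3. Luc7l2, which binds U1 small nuclear ribonucleoprotein, had 6 loci, and Pum2, which binds Pumilio elements of mRNAs, had 5. Matr3, a protein of the nuclear matrix, had 4. Qk and Tra2a had 3 each. The others had 1 or 2, among them Hnrnpa1, Mbnl1, Mbnl2, Tra2b and U2af2 with 2 loci, and Celf1, Elavl1, Hnrnpu, Msi1, Msi2, Son, Srsf11 and U2af1 with 1. The U2af1 locus had a member only in replicate 3, and the Elavl1 locus had none in replicate 3.

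Of 18 genes of the miRNA machinery, Tnrc6a and Tnrc6b had 1 locus each (11.1%), and among those with an exon peak in all libraries the share was 14.3%, against 11.4% over all such genes. They encode GW182 proteins, which bind Argonaute and recruit deadenylases. The Tnrc6b locus had no member in replicate 2. Among 30 genes of the neuronal cytoskeleton and growth, 4 had a locus (13.3%), or 4 of 17 (23.5%) among those with an exon peak in all libraries. Their median intron length was 296 kb, and 9.72% of all genes in the class of longest introns had a locus. Cadm1, an adhesion molecule, and Map1b, a microtubule-associated protein, had 3 loci each, and Ank2 and the kinesin Kif5c had 1 each. The Kif5c locus had a member only in replicate 1.

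Neighbouring loci were common. Another locus lay within 5 kb on the same strand of 574 loci (38.3%, 95% Wilson interval 35.8 to 40.8%), and 36 groups of 4 or more held 213 loci. After the Pcbp3 group, the largest were those of Taf15, 2010111I01Rik (23.1 kb) and Ankrd17 (15.4 kb) with 10 loci each, of Ankrd11 with 9 loci in 13.1 kb, and of Racgap1 and Ube2k with 8 loci in 7.13 and 12.2 kb. Loci of 1 group share a transcript and are not independent observations.

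The distance to splice sites was measured next. The median distance to the nearest annotated splice site was 3163 nt (quartiles 815 and 10645 nt) in introns with a median length of 16428 nt, and it was 2061 nt with 1 locus per gene and 2060 nt without replicate 1. The locus kept for each gene was that with the lowest coordinate, so its place along the gene depends on the strand. By library, member peaks had a median distance of 3660, 3614 and 3338 nt in replicates 1, 2 and 3 and single-library peaks of 4747, 3384 and 2181 nt, so the values of members lay inside the range of the others. Within 100 nt of a splice site lay 119 loci, within 1 kb 436, and more than 10 kb away 398. In 5 equal parts from the 5′ to the 3′ end of the intron there were 402, 332, 315, 221 and 230 loci.

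An intron was counted as first when it was the first of any annotated transcript, so a gene can have several. By this measure members lay in a first intron in 51%, 50.5% and 51.3% of cases in replicates 1, 2 and 3 (50.9 ± 0.404%, SD, n = 3). Intronic peaks of the same width found in a single library did so in 39.5%, 39.3% and 41.1%. These ranges do not overlap. With only 1 locus taken from each gene, however, 305 of 730 loci (41.8%, 95% Wilson interval 38.3 to 45.4%) were in a first intron, an interval that includes the values of single-library peaks. The locus taken was the 5′-most of plus-strand genes and the 3′-most of minus-strand genes. Single-library peaks were not reduced in this way, so the comparison cannot decide whether the difference holds by gene.

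Base composition set the loci apart from the intron around them. Windows of the same length were read 500 nt before and after each locus, in the same intron and off exons, which gave 2502 windows for 1411 loci. Loci had a mean GC content of 34.5% against 40.4% in these flanks. Taken by library, over the loci with members in it, the difference was −5.69 ± 0.254 percentage points (SD, n = 3). A and T were raised by 3.17 ± 0.272 and 2.58 ± 0.0416 percentage points. The 3 libraries hold largely the same loci and give no independent test of this difference.

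**Figure D5:**
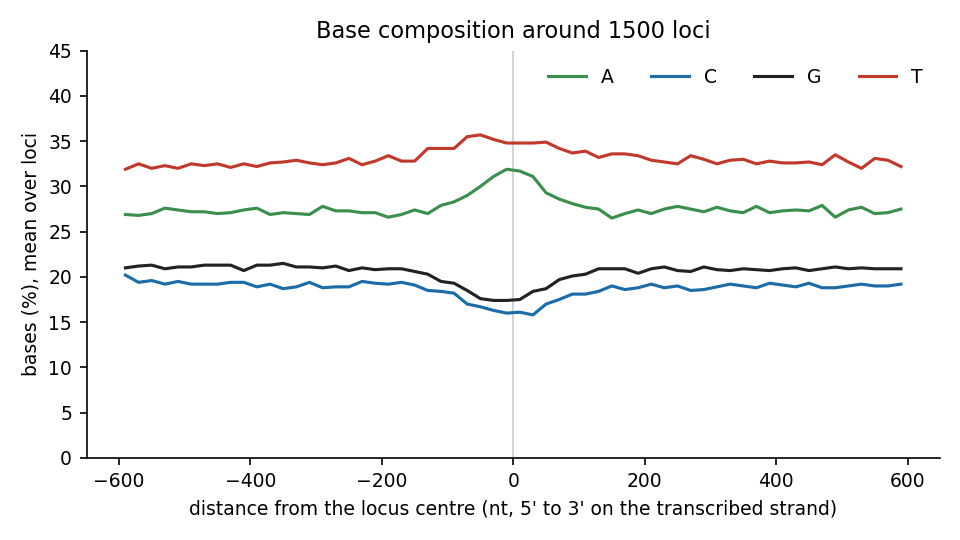
Mean share of A, C, G and T (percent, 20-nt bins) by distance from the centre of 1500 loci (nt, 5′ to 3′ on the transcribed strand). A reaches its highest share at the centre, and C and G are lowest within about 30 nt of it. Beyond about 200 nt on either side all lines are nearly flat.

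The low GC content followed recurrence step by step. Intronic peaks found in a single library had 38.4%, 39.5% and 37.8% GC in replicates 1, 2 and 3, those overlapping a peak in 1 other library 35.4%, 36.4% and 35.4%, and members 33.8%, 34.4% and 33.6%. Within each library the order was the same, and the class ranges did not overlap, at median widths of 93 to 99 nt in each class.

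Of the sequence words searched on the transcribed strand, several rich in A and T were more frequent in loci than in flanks. AATAAA, the common polyadenylation signal, was present in 16.7% of loci (95% Wilson interval 14.9 to 18.6%) and 9.95% of flanks (8.84 to 11.2%). ATTTA, the core of AU-rich elements, was in 37.9% (35.4 to 40.3%) against 28.8% (27.1 to 30.6%), and AAAAAAA in 8% (6.73 to 9.48%) against 4.76% (3.99 to 5.66%). TTTTTTT was in 11.7% (10.1 to 13.4%) against 9.87% (8.76 to 11.1%), with overlapping intervals. A run of at least 10 A was in 2.6% of loci against 1.16% of flanks, and a run of at least 10 T in 3.53% against 3.4%, again with overlapping intervals. Against single-library intronic peaks the run of A went the other way, with 2%, 1.51% and 1.75% of members in replicates 1, 2 and 3 against 2.93%, 2.27% and 1.99%.

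TGTGTGT was in 8.4% of loci against 6.47% of flanks, and CACACAC in 3.27% against 2.64%, both with overlapping intervals. The same held for TGCATG, which RBFOX proteins bind, with 6% against 5.68%, and for the Pumilio element TGTANATA with 4.73% (3.77 to 5.93%) against 3.2% (2.58 to 3.96%). CTCTCTC and GAGAGAG went the other way, with 1.07% of loci (0.658 to 1.73%) against 2.24% of flanks (1.73 to 2.9%) and 0.733% (0.41 to 1.31%) against 2.08% (1.59 to 2.72%). A word in a locus is a description and not a binding site.

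Over all 6-nt words present in at least 75 loci, 727 of 874 were more frequent in loci than in flanks. The minimum was set on the loci alone and favours words frequent there, so this count is a description only. The words with the highest ratios were TATAAC (5% against 2.28%), TAGTAA (8.33% against 3.92%) and AACATA (7.53% against 3.68%), each with 5 of 6 bases A or T. The lowest ratio was that of AGTGCT, with 5.53% of loci against 8.87% of flanks.

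Matches to miRNA seeds were counted in the same way. A miRNA recognises its targets mainly by pairing of its seed, bases 2 to 8. Of 30 miRNAs listed, 28 were found in the RefSeq table (GRCm38.p6), with 28 different seeds. A match to at least 1 of them was present in 30.8% of loci (28.5 to 33.2%) and 27.3% of flanks (25.6 to 29.1%), intervals that overlap. The difference of 3.46 percentage points was 1.11 without replicate 2, 1.18 with trimmed peaks and 6.65 with 1 locus per gene. Matches followed by A, called 8mers, were in 12.1% (10.6 to 13.9%) against 7.63% (6.66 to 8.74%), intervals that do not. Members and single-library peaks held a match in 21.3 ± 1.21% and 18.8 ± 1.76% of cases (SD, n = 3).

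The ratio of loci to flanks had a lower median for seed matches with few A or T, though single seeds varied within each class. The median was 1.32 for the 7 seeds whose match has at least 5 A or T, 1.3 for the 11 with 4, and 0.896 for the 10 with at most 3. The ratio was over 1 for 6, 8 and 4 seeds of these classes. The mature forms of the miRNAs named below, with the seed in capitals, show what is paired.
miR-142a-5p: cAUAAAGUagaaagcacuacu
miR-26a-5p: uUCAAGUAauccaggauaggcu
miR-21a-5p: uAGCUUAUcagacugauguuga
miR-7a-5p: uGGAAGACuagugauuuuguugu

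The highest ratio, 1.97, was that of miR-142a-5p, whose match ACTTTAT was in 3.87% of loci (3 to 4.97%) and 1.96% of flanks (1.48 to 2.58%). The match of miR-26a-5p, TACTTGA, was in 2.33% (1.68 to 3.23%) against 1.4% (1.01 to 1.94%), with overlapping intervals. For miR-21a-5p, the miRNA at the centre of the study, ATAAGCT was in 1.2% (0.76 to 1.89%) against 0.759% (0.487 to 1.18%), also overlapping. The lowest ratio, 0.381, was that of miR-7a-5p, whose match GTCTTCC was in 0.533% of loci (0.27 to 1.05%) and 1.4% of flanks (1.01 to 1.94%), intervals that just overlap. With 28 seeds compared, intervals that do not overlap at single seeds are given without a call.

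Loci were poorer in repeats than their surroundings. At least 50% of the bases were repeat-masked in 14.2% of loci (12.5 to 16.1%) and 19.6% of flanks (18.1 to 21.2%), and 395 loci had no masked base. The 30-nt word at the centre occurred more than once in the primary chromosomes for 1.4% of loci (0.917 to 2.13%) and 7.11% of flanks (6.17 to 8.19%). The share of loci was 2.44% without replicate 3, 0.81% with trimmed peaks and 10.1% for words of 20 nt. How reads with several genomic matches were treated is not given in the sources used here. By library, 16.1%, 18.4% and 16% of members and 24.2%, 24.5% and 19.7% of single-library peaks were at least 50% masked.

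A peak of any width lay on the opposite strand at 204 loci (13.6%, 12 to 15.4%). Among member peaks the share was 11.6 ± 0.346% (SD, n = 3), and among those with a partner in 1 other library 11.5 ± 0.529%, so members did not stand apart in this respect by more than the spread between libraries.

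Some loci were exonic in another annotation. A RefSeq exon on the same strand was touched by 107 loci (7.13%, 5.94 to 8.55%), against 6.27% of flanks (5.39 to 7.29%) and 2.81% of single-library intronic peaks (2.74 to 2.88%). Flanks have the width of the loci, with a median of 152 nt. Single-library peaks are narrower, with medians of 93 to 97 nt, and so touch an exon less readily. Exons touched by the loci are described next. In 82 of the 107 loci the exon belonged to the same gene and in 25 only to another. In just 24 loci was it an exon of a curated transcript. Of the 12 loci of Ube2k, 10 lay in exons of the predicted non-coding gene Gm40309. For Ankrd17 it was 9 of 16 loci, in predicted mRNA exons of the gene itself, and for Sfpq 4 of 6, in a predicted non-coding form of the gene.

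Few loci had a small RNA beside them. Within 100 nt of an annotated miRNA, snoRNA, scaRNA or snRNA gene on the same strand lay 5 loci. Besides those of Evl beside Mir342 and Tmem164 beside Mir652, whose sequences are printed above, these were the loci of Nop58, Prpf39 and Hspa9, which began 6, 8 and 11 nt after the snoRNA genes Gm26287, Gm25970 and Gm26109. Nop58 encodes a core protein of snoRNA particles and Hspa9 a mitochondrial chaperone. These distances also run from peak ends that appear to be padded. Each of the 5 had a member in a single library, replicate 2 for Tmem164 and replicate 3 for the others.

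An exact copy of a mature miRNA stood in 5 loci, out of 1738 mature forms searched. They were miR-706 in Pum2 and Ankrd11, miR-3473a in B4galt1, and miR-3473b in Ppp4r2 and Ankrd10. None of the 5 was at the annotated position of that miRNA, where the rule against annotated exons leaves out most peaks in advance.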

How the data were processed

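The 3 Ago2 HITS‐clip libraries of N2A cells were analysed as 1 group from the peak table that the authors deposited, which gives chromosome, start, stop, strand, a score without stated unit and the sample. The submitters' processing notes name FastQC, cutadapt, STAR and mm10. The peak caller and its threshold are not given in the sources used here. The deposited score was used for no ranking, and depth is unknown. Left out were 430, 276 and 315 peaks on sequences other than the 21 primary chromosomes.

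Introns and exons came from GENCODE M21, and sequence, repeat masking, RefSeq exons and mature miRNAs from GRCm38.p6. "No annotated exon" was read as no exon on either strand. Overlapping members on a strand were joined into loci. A locus was placed in the shortest intron that contains it. miR-124-3p and miR-185-5p were not matched. The libraries are separately labelled samples whose spread may be technical. Shares have 95% Wilson intervals, and no test was made, since the rule chose the peaks on these libraries. Members and gene lists were chosen with earlier results of these data known.

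Named were the 15 genes with most loci, the 10 with most loci per 100 kb of intron among those with at least 3, the 10 loci with the closest ends, listed genes with a locus, and loci at small RNAs. Sequences of 6 loci are shown, and some named genes and loci are not reported here. Overlap code was tested on simulated data. Alternatives changed width, overlap, trimming, exon strand, libraries, flanks, word length, masking and site type. Overlaps used bedtools 2.31.1 and pysam 0.24.0 under Python 3.11.15, with pandas 2.3.3 and numpy 2.4.6.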

Additional observations from a re-analysis of the deposited data

How the results depend on the processing

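Of 133 values under alternatives, 63 moved by more than the spread between libraries, outside the main interval or quartiles, or, for counts, by over 1.5 times. The 4 differences between loci and flanks, which alone have a sign, kept it under each alternative run. The rule's width and overlap set the size of the set. With all peaks up to 200 nt there were 3959 members a library (mean), 4245 loci and 1955 genes. With peaks of 90 to 200 nt there were 795 members and 896 loci, and with an overlap of at least 30 nt 861 and 996. With trimmed peaks there were 412 members, 494 loci, 325 genes and a recurrent share of 0.572%. Leaving out 1 library asks for 1 partner only and gave 3516 to 12432 members, 3358 to 11219 loci, 1543 to 3111 genes and shares of 6.44 to 13.9%.

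The GC difference was −4.34 percentage points with all peaks up to 200 nt, −6.24 with trimmed peaks, −6.27 with 1 locus per gene and −5.21 to −4.47 without a library. The AATAAA difference was 4.83 points with all peaks up to 200 nt, 5.69 with peaks of 90 to 200 nt, 8.57 with the longer overlap, 8.11 with trimmed peaks, 8.22 with flanks at 1000 nt and 4.83 to 7.46 without a library. The seed difference of 3.46 points became 4.5 for 8mers, 4.95 with peaks of 90 to 200 nt, 2.38 with the longer overlap, 1.18 with trimmed peaks, 6.65 with 1 locus per gene and 1.11 to 4.16 without a library. For runs of at least 10 A or T the difference of 1.42 points became 0.786 with peaks of 90 to 200 nt, 0.855 with the longer overlap and 2.04 with flanks at 1000 nt, and 1.46 to 1.56 without a library.

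The distance to a splice site was 2971 nt with all peaks up to 200 nt, 3605 nt with the longer overlap, 3654 nt with trimmed peaks, 2061 nt with 1 locus per gene and 2060 to 4470 nt without a library. The end difference was 40 nt with trimmed peaks and 67 to 80 nt without a library. Multi-copy loci were 0.81% with trimmed peaks, 10.1% with words of 20 nt and 1.83 to 2.44% without a library. Loci with any masked base were 73.7%, and those at least 50% masked 15.6 to 17.3% without a library. The cause of these moves was not tested. Using 1 locus per gene, that with the lowest coordinate, and leaving out loci in RefSeq exons were alternatives chosen after seeing the data. No paired analysis was possible because there was only 1 group.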
